A study of Drosophila melanogaster with 3 samples.

Results

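The nuclear-encoded genes of the mitochondrial respiratory chain were examined for binding of the clockwork orange protein (cwo) in embryos of Drosophila melanogaster. They were chosen by symbol among the protein-coding genes of the autosomal arms 2L, 2R, 3L and 3R, chromosome 4 and the X. The symbols start with ND- (complex I), Sdh (complex II), UQCR- (complex III, with RFeSP), COX and a digit (complex IV) or ATPsyn (complex V). The rule gave 89 of 13945 genes, which were 40 of complex I, 8 of complex II, 10 of complex III, 16 of complex IV and 15 of complex V. By symbol, 64 were subunits, 24 were L copies, that is paralogues named after a subunit with an added L, and 1 was the succinate dehydrogenase assembly factor Sdhaf3. Known subunits under other names, such as levy and blw, fall outside the symbol rule and are described with the other genes of respiration.

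The data are chromatin immunoprecipitation and sequencing (ChIP-seq) from a single group of 3 biological replicates. The embryos were whole, aged 6 to 24 h and of both sexes pooled, from a transgenic line with GFP fused to the C-terminus of cwo, and the antibody recognised GFP. No untagged or untreated group was analysed here, so binding is compared between genes and not between conditions. Whole embryos mix many cell types, and a region list does not tell in which of them cwo was bound. A gene was counted as bound when any of its transcription start sites (TSSs) had, at most 1000 bp away, a summit of the optimal list, that is a point of highest enrichment. The optimal list holds the 7366 regions that passed the authors' test of reproducibility (irreproducible discovery rate, IDR) and is ranked here by its deposited signal, with rank 1 the strongest.

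The respiratory chain passes electrons from NADH through complex I, and from succinate through complex II, to ubiquinone, then through complex III and cytochrome c to complex IV, where oxygen is reduced. The proton gradient so built drives complex V, the ATP synthase. Complexes I, III, IV and V combine subunits encoded in mitochondrial DNA with many encoded in the nucleus, whereas complex II is wholly nuclear, and in flies many L copies are expressed mainly in the testis. The cwo protein is a bHLH-Orange transcriptional repressor, known from the circadian clock of the fly, and recognises E-boxes such as CACGTG.

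Of the 89 respiratory chain genes, 15 were bound (16.9%, 95% Wilson interval 10.5 to 26.0%). Of all protein-coding genes, 25.3% were bound (3535 of 13945), so the share of the respiratory chain genes was below the background, and the upper end of its interval reached it. Among the subunits proper 13 of 64 were bound (20.3%, 12.3 to 31.7%), and among the L copies 2 of 24 (8.33%, 2.32 to 25.8%). The bound subunits were ND-ASHI, ND-42, ND-51, ND-MWFE, ND-SGDH and ND-24 of complex I, COX7C, COX5A and COX7B of complex IV, and ATPsynC, ATPsynE, ATPsynCF6 and ATPsynD of complex V. The bound L copies were COX7AL2 and UQCR-6.4L. The intervals cover counting error over genes only. The count depends on how summits are assigned to genes: it was 23 of 89 (25.8%) with a distance of 2000 bp, against 31.6% of all protein-coding genes. It was 7 of 89 (7.87%) when each summit was given to the nearest protein-coding gene alone, against 19.3% of all.

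**Figure D1:**
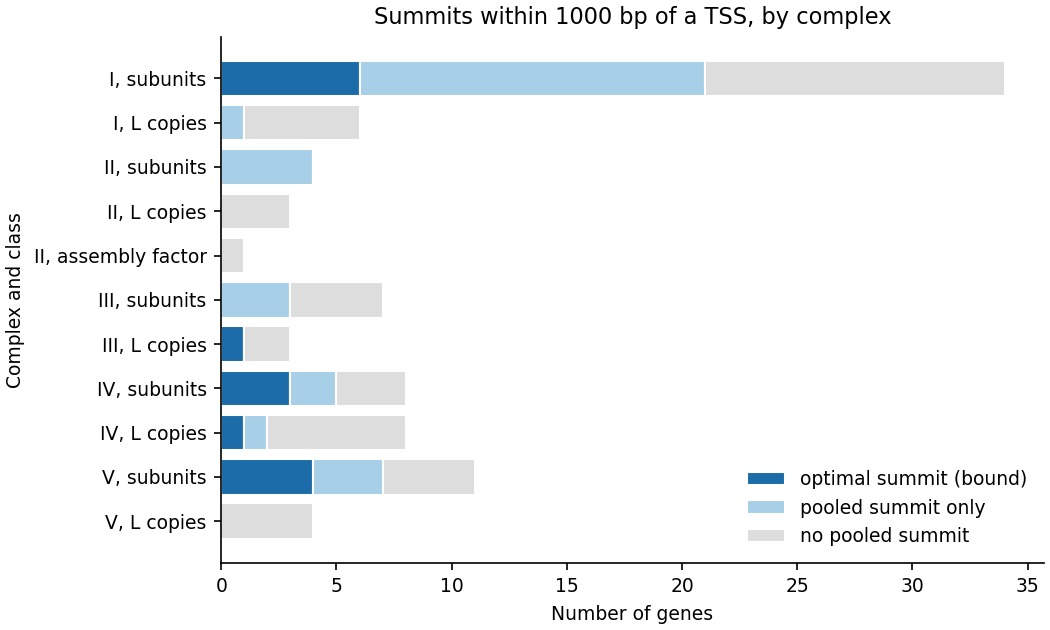
Number of respiratory chain genes (x axis) by complex and class (y axis), split into genes with an optimal summit within 1000 bp of a TSS, genes with only a summit of the pooled list there, and genes with neither. Complex I has 6 bound subunits of 34, complex II has 0 of 4, and the L copies of complexes I, II and V have 0. All 4 subunits of complex II have a pooled summit, which may be background.

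The 3 replicates gave 14, 14 and 18 bound respiratory chain genes when the 7366 strongest regions of each were used (15.7%, 15.7% and 20.2% for replicates 1, 2 and 3). The same regions gave 25.8%, 25.5% and 25.0% of all protein-coding genes. The share was therefore lower than that of the other protein-coding genes in 3 of 3 replicates, by -10.2, -9.79 and -4.76 percentage points. The mean difference was -8.24 ± 3.02 points (SD, n = 3; exact two-sided sign-flip permutation test, p = 0.25, the smallest p that 3 replicates allow). The same 11 genes were bound in every replicate, 19 were bound in at least 1, and 70 were bound in none. This overlap was not counted over all protein-coding genes, so it is not compared with a background. The bound genes outside the 11 were ATPsynCF6, ATPsynD, UQCR-6.4L and COX7B, each of which lacked a summit of that strength within 1000 bp in at least 1 replicate.

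The gap to the background was smaller when all regions called were counted and not the optimal ones alone. The pooled list, called by the authors on the reads of all replicates with no IDR threshold, holds 30000 regions, the optimal ones included. It was deposited as peaks and background for the IDR step, and each replicate list also holds 30000 regions. Their weaker regions may thus be background and need not mark binding. A pooled summit lay within 1000 bp of a TSS in 44 of the 89 genes (49.4%), against 51.3% of all protein-coding genes. Of the 44, 15 also had an optimal summit (34.1%), whereas 49.4% of all protein-coding genes with a pooled summit had one. The other 29 had weaker regions only (32.6% of the 89), against 25.9% of all protein-coding genes. A pooled summit of any strength lay at 40 of 64 subunits (62.5%) and at 4 of 24 L copies (16.7%, 6.68 to 35.9%), and 27 subunits and 2 L copies had weaker regions only. The difference between these classes was not tested. For 32 of the 89 genes, neither the pooled list nor any replicate list had a summit at a promoter. The matching count over all protein-coding genes was not made, so whether 32 is many or few is not known.

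**Figure D2:**
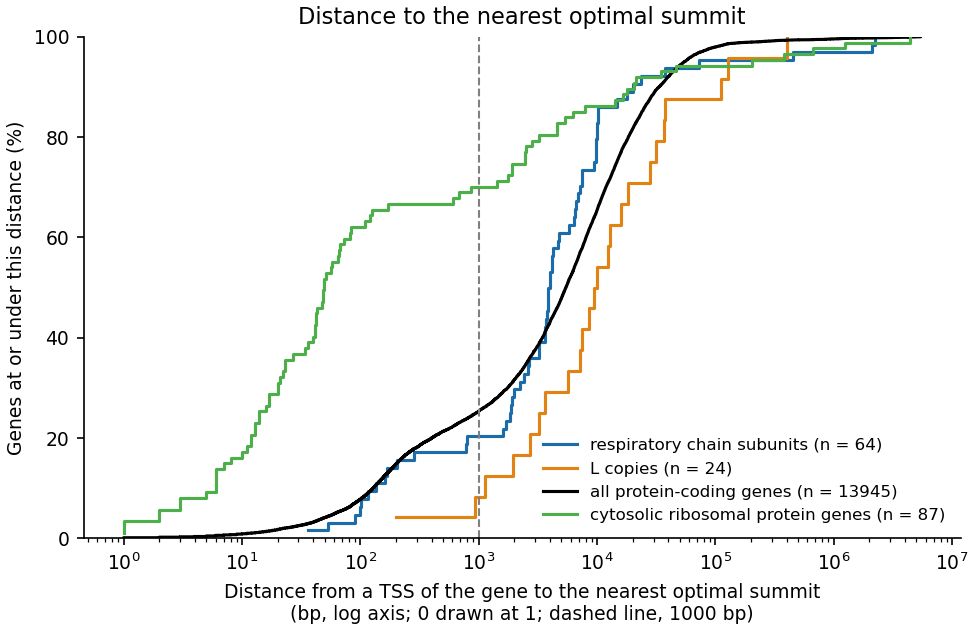
Cumulative share of genes (y axis, %) against the distance from a TSS to the nearest optimal summit (x axis, bp, log scale) for respiratory chain subunits, L copies, all protein-coding genes and cytosolic ribosomal protein genes. Median distances are 3924 bp for the subunits, 9716.5 bp for the L copies, 5454 bp for all protein-coding genes and 49 bp for the ribosomal protein genes.

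The nearest optimal summit lay at a median of 4703 bp from the respiratory chain genes and 5454 bp from all protein-coding genes. Around the limit of 1000 bp, UQCR-6.4L was just inside with its summit at 935 bp, and UQCR-11L was just outside at 1136 bp. A further 7 genes had a summit between that point and 2000 bp, namely ND-39 at 1606 bp, ATPsyndelta at 1706 bp, RFeSP at 1853 bp, ND-B22 at 1876 bp, SdhC at 1895 bp, COX7CL at 1942 bp and ND-B16.6 at 1990 bp. The summit nearest to ND-B16.6 was that of kdn, the citrate synthase gene beside it. The farthest genes were UQCR-11, ND-AGGG, ND-MLRQ and COX4L, at 2230505, 2086050, 449122 and 400570 bp.

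Complex I had 6 bound genes of 40 (15.0%, 7.06 to 29.1%), against 25.3% of all protein-coding genes. All 6 were among its 34 subunits, and 0 of its 6 L copies were bound. The subunit roles given here are those of the mammalian complexes. ND-51 and ND-24 are the neighbouring core subunits of the arm that takes up NADH, where ND-51 holds the flavin. ND-ASHI, ND-42, ND-MWFE and ND-SGDH are accessory subunits. The strongest summit was that of ND-ASHI (FBgn0029888, X:6677262-6679118, minus strand) at position 6679404, which is 286 bp upstream of the TSS. It ranked 434 in the optimal list and 311, 454 and 512 in replicates 1, 2 and 3, with signals of 447, 493 and 751. The ranks stayed within the strongest 1000 regions in every replicate, while the signal, whose scale differs between libraries, was highest in replicate 3. This summit lies in an intron of Fum1, the fumarase gene, whose TSS is 236 bp away on the other strand and is thus the nearer start.

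ND-42 (FBgn0019957, 3R:22027709-22029393, plus strand) had its summit at position 22027540, which is 169 bp upstream. It ranked 1504, and 1447, 1473 and 1646 in the replicates, with signals of 182, 247 and 370. Its mean rank was 1522 ± 108 (SD, n = 3), a narrow spread. The nearer start, at 60 bp, was that of Cchl, which encodes the lyase that attaches heme to cytochrome c. The summit of ND-51 (2L:6060842-6062757, minus strand) at position 6062893 was 136 bp upstream and ranked 2206, and 1727, 2180 and 2874 in the replicates. CG13994 starts 96 bp from it on the other strand.

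The weaker bound genes of complex I with their own start nearest to the summit were ND-SGDH and ND-24. ND-SGDH (3L:12137496-12138584, minus strand) had its main summit at position 12138701, 117 bp upstream, with rank 3393 and replicate ranks of 3018, 3464 and 3804. A second summit, of rank 5714, lay 920 bp upstream. ND-24 (X:17632089-17633509, plus strand) had its summit at position 17632230, inside the annotated gene and 91 bp upstream of a second TSS, and at rank 5226 it was the weakest of the 6. Its replicate ranks were 5062, 3765 and 6218, a spread of 1227 (SD, n = 3) around 5015. Each shares its promoter with a gene on the other strand. For ND-24 this is corolla, which encodes a protein of the synaptonemal complex and starts 183 bp from the summit.

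To show what lay under a strong and a middle-ranked summit of complex I, the 201 bases around the summits of ND-ASHI (X:6679304-6679504, 42.3% G and C) and ND-SGDH (3L:12138601-12138801, 31.3% G and C) are given on the plus strand of dm6. The single capital marks the summit base, and neither stretch held any of the 9 motifs searched.
ND-ASHI: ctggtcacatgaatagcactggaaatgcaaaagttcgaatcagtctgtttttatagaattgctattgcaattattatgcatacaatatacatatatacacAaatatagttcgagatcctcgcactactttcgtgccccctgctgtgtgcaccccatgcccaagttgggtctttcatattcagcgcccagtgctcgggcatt
ND-SGDH: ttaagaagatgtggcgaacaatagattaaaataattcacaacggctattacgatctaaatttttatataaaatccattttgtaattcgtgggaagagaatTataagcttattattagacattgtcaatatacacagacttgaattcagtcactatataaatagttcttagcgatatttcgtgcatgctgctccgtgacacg

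The last bound gene of complex I, ND-MWFE, had summits 517 bp downstream and 206 bp upstream of its TSS. The stronger, downstream one ranked 2221, and 1615, 1904 and 3360 in the replicates, and it lay 42 bp from the start of TppII, a peptidase gene. Of the core subunits of complex I, ND-51 and ND-24 were bound, whereas ND-75, ND-23, ND-20, ND-30 and ND-49 were not. The strongest pooled summits at ND-75, ND-23 and ND-20 ranked 10556, 9344 and 19556, all beyond the 7366 regions of the optimal list. ND-30 and ND-49 had no pooled summit at a promoter. ND-49, whose nearest optimal summit was 72899 bp away, lies on chromosome 4, as does ATPsynbeta. Only 4 of the 80 protein-coding genes of that chromosome were bound (5.0%).

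Complex II had 0 bound genes of 8, which leaves an upper Wilson limit of 32.4%, above the 25.3% of all protein-coding genes. Its subunits nevertheless all had weaker regions at their promoters. SdhA, the flavoprotein, had a pooled rank of 22618, and SdhB, the iron-sulfur subunit, 13520. The membrane anchors SdhC and SdhD had pooled ranks of 7857 and 21263. In the replicates, the strongest promoter summit of SdhC ranked 6347, 18483 and 5352, so it was among the strongest 7366 regions in replicates 1 and 3 only. The corresponding ranks at SdhA were 19919, 7528 and 5668, inside that limit in replicate 3 only. SdhB (11019, 17890 and 14995) and SdhD (22407, 22464 and 22017) were outside it in every replicate. SdhAL, SdhBL, SdhCL and Sdhaf3 had no pooled summit at a promoter.

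Complex III had 1 bound gene of 10 (Wilson interval 1.79 to 40.4%), and this was the L copy UQCR-6.4L. None of its 7 subunits was bound (upper limit 35.4%). UQCR-6.4L (3L:16566750-16567300, plus strand) had its summit at position 16567685, which is 935 bp downstream of the TSS and past the end of the gene. It ranked 5225, and 5782, 6493 and 5094 in the replicates. UQCR-C1 and UQCR-C2, the core proteins, had no pooled summit at a promoter, and the optimal summits nearest to them were 4037 and 2674 bp away. RFeSP, the Rieske iron-sulfur protein, had a pooled rank of 10971 and replicate ranks of 12566, 10451 and 11288. UQCR-14 came closest among the subunits, with a pooled rank of 9745 and replicate ranks of 9178, 18051 and 7312, the last of them inside the limit.

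Complex IV, cytochrome c oxidase, had 4 bound genes of 16 (25.0%, 10.2 to 49.5%), close to the 25.3% of all protein-coding genes. They were 3 of 8 subunits and 1 of 8 L copies. The strongest summit of any respiratory chain gene was at the L copy COX7AL2 (FBgn0085201, 2L:2192525-2197912, minus strand), at position 2197296 in an intron of the gene, 616 bp downstream of a TSS. It ranked 396, and 474, 396 and 407 in the replicates, with signals of 350, 529 and 855. The ranks were nearly the same in all 3 replicates, at 426 ± 42.2 (SD, n = 3). COX7AL2 had 5 optimal summits within 1000 bp of its TSSs, of ranks 396, 730, 838, 3196 and 3909, and no other protein-coding gene started within 1000 bp of the main one.

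COX7C, a small nuclear subunit of the oxidase, ranked 1782, and 2377, 1667 and 1656 in the replicates, with signals of 131, 229 and 369. Its main summit lay 152 bp upstream of the TSS and a second one, of rank 3797, 53 bp downstream. COX5A (3R:11819359-11820299, plus strand) ranked 5021, and 4569, 5098 and 5963 in the replicates, with its summit at position 11819498, inside the annotated gene and 101 bp upstream of a second TSS. COX7B (3L:17425477-17426282, plus strand) ranked 5504, and 4104, 11032 and 5349 in the replicates, with its summit 99 bp upstream at position 17425378. Of these, COX7B alone was outside the strongest 7366 regions in a replicate. Among paralogues, COX7C was bound and COX7CL was not, and COX7AL2 was bound while COX7A and COX7AL were not. COX4 and COX4L were both unbound, as were COX5B and COX5BL. The summit nearest to COX7CL, at 1942 bp, was the second summit of COX7C. With 25.3% of all protein-coding genes bound, pairs that differ are frequent by counting alone, and sharing between paralogues was not tested. The unbound subunits COX4, COX7A and COX8 had no pooled summit at a promoter. COX5B and COX6B had pooled ranks of 14177 and 8405.

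Complex V, the ATP synthase, had 4 bound genes of 15 (26.7%, 10.9 to 52.0%), close to the 25.3% of all protein-coding genes. All 4 were among its 11 subunits. ATPsynC, the subunit of the rotor ring, had the strongest summit of them (FBgn0039830, 3R:31216145-31219630, minus strand), at position 31219523 in the 5′ untranslated region, 36 bp downstream of a TSS. It ranked 1953, and 2034, 1327 and 2822 in the replicates, with signals of 146, 261 and 253. ATPsynC is the only bound subunit of the chain with no other protein-coding start within 1000 bp of the summit. The other 3 had summits farther from their own start, each nearer to a neighbour.

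ATPsynE, a small membrane subunit (3R:14326947-14327735, plus strand), had its summit at position 14327858, which is 790 bp downstream of the TSS, past the gene's end and 193 bp from the start of spn-B, a meiotic recombination gene. It ranked 2522, and 2700, 2980 and 2421 in the replicates. ATPsynCF6, a subunit of the peripheral stalk (3R:23355220-23356064, minus strand), ranked 2780, and 3725, 3954 and 2342 in the replicates. Its main summit was 988 bp upstream and 489 bp from the start of Sec13, a vesicle coat gene, and its second summit, of rank 4980, was 163 bp upstream. ATPsynD, also of the peripheral stalk (3R:19095000-19096271, plus strand), ranked 4927, and 9084, 5406 and 4276 in the replicates. Its summit, 786 bp upstream, was 56 bp from the start of the kinase gene cdi. ATPsynbeta, the catalytic subunit, had no pooled summit at a promoter, and ATPsyngamma, the rotor stalk, had a pooled rank of 18339.

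**Figure D3:**
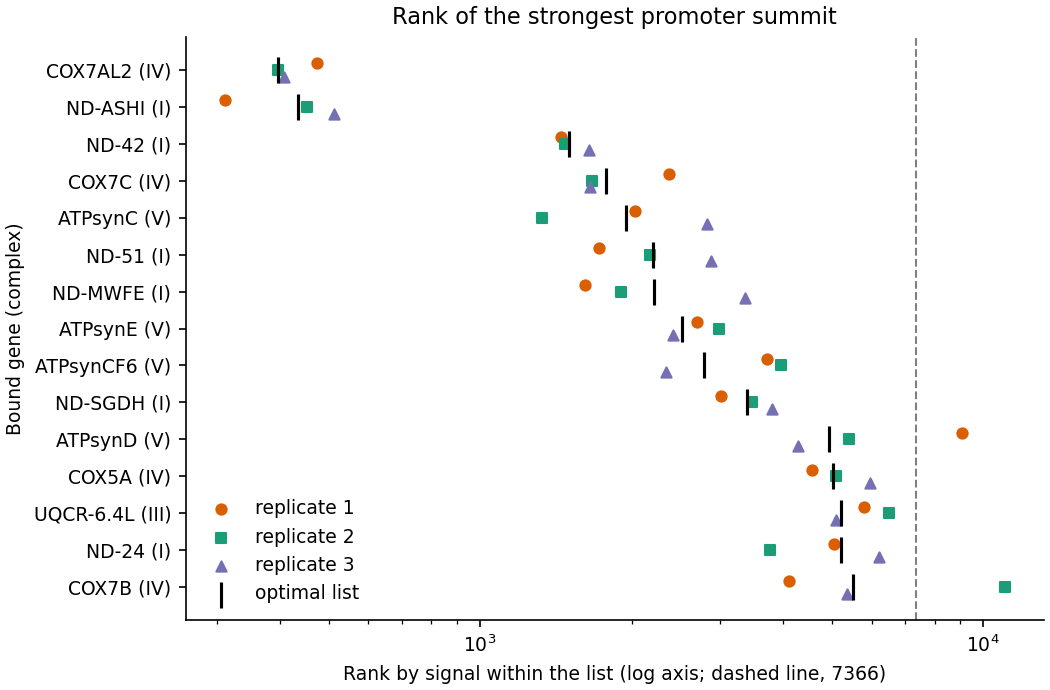
Rank by signal (x axis, log scale, 1 strongest) of the strongest promoter summit of each of the 15 bound genes (y axis) in the optimal list and in replicates 1, 2 and 3, with the limit of 7366 as a dashed line. COX7AL2 and ND-ASHI lie between 311 and 512 in every replicate, and ATPsynD in replicate 1 (9084) and COX7B in replicate 2 (11032) lie beyond the limit.

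The bound summits of the respiratory chain were of middle strength. Their median rank was 2522 (396 to 5504), against 2809 for all bound protein-coding genes, and 2 of the 15 were above rank 1000. All 3 replicates held 13 of the 15 summits among their strongest regions (86.7%, against 78.5% of all bound protein-coding genes), the exceptions being ATPsynD and COX7B. Here a replicate held a summit when it lay inside 1 of the replicate's regions, whose own summit may be farther than 1000 bp from the TSS, as for ATPsynCF6 and UQCR-6.4L. The unbound genes that entered the strongest regions of at least 1 replicate were 4, namely ND-B22, SdhA, SdhC and UQCR-14, and 0 of them did so in all 3. The optimal list was made from the same replicates, so these shares describe spread and are not independent evidence of binding.

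Most bound summits of the respiratory chain were shared with another gene. For 12 of the 15, another protein-coding gene started within 1000 bp of the summit (80.0%), against 51.1% for all bound protein-coding genes. In 11 of the 12 the nearest such start was on the other strand, which is usual at bound genes. Counted from the TSS and not the summit, 2058 bound protein-coding genes had another start within 1000 bp. For 1907 of them such a start was on the other strand. The respiratory chain gene had the nearest start in 7 of 15 (46.7%), against 75.0% for all bound genes. These 7 were COX7AL2, COX7C, ATPsynC, ND-SGDH, UQCR-6.4L, ND-24 and COX7B. In the other 8 (ND-ASHI, ND-42, ND-51, ND-MWFE, ATPsynE, ATPsynCF6, ATPsynD and COX5A) a neighbour was nearer, and for COX5A the gap was small, with its own start at 101 bp and that of glo, an RNA-binding protein gene, at 78 bp. Which of the genes at such a summit responds to cwo, if any, was not tested in these data.

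**Figure D4:**
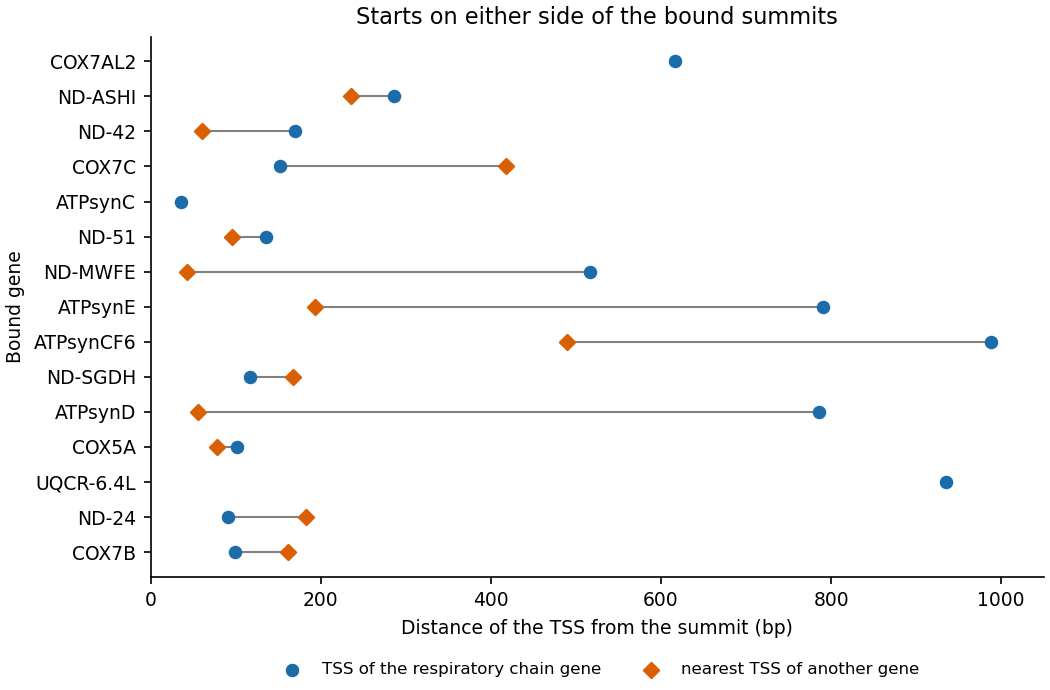
Distance from the strongest promoter summit (x axis, bp) to the TSS of each bound respiratory chain gene and to the nearest start of another protein-coding gene where it lies within 1000 bp (y axis, bound gene). The neighbour is the nearer start for 8 of the 15 genes, and COX7AL2, ATPsynC and UQCR-6.4L have no such neighbour.

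Neighbouring starts were frequent at respiratory chain genes in general, a split made after the values had been seen. Another protein-coding gene started within 1000 bp of a TSS of 51 of the 89 genes (57.3%), compared with 42.9% of all protein-coding genes. Of these 51, 13 were bound (25.5%, 15.5 to 38.9%), against 34.4% of all protein-coding genes with such a neighbour. Of the 38 without a neighbour, 2 were bound (5.26%, 1.46 to 17.3%), namely ATPsynC and UQCR-6.4L, against 18.6% of all genes without one. The share of the respiratory chain genes was below the background in both classes.

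CACGTG, the E-box, was found within 100 bp of the strongest summit at 1 of the 15 bound genes (6.67%, 1.19 to 29.8%), which was COX7C, where it lay 29.5 bp from the summit. Of all optimal summits at protein-coding promoters, weaker ones of a gene included, 480 of 3693 held it (13.0%). Of the strongest summits of all bound protein-coding genes, 381 of 2646 held it (14.4%). The interval of the respiratory chain genes includes both shares. The shares of all given below refer to the 3693 summits. Of its variants, CACGCG was found at 1 summit (8.61% of all), CACGTT at 2 (10.8% of all) and the third, CACGAG, at 1 (6.12% of all). CACGTG or a variant was present at 4 of the 15 (COX7C, ND-MWFE, COX5A and COX7B), against 32.9% of all. Each motif was searched on both strands. The palindrome CAGCTG was searched for comparison, but it shares the CA and TG ends of the E-box and is thus not a neutral control. CAGCTG was found at 3 of 15 (20.0%, 7.05 to 45.2%), those of ND-42, ND-51 and ND-24, against 10.9% of all. Of the others, TGATAA was found at 4, GAGAGA at 2, and TATCGATA and TCCGGA at 0, against 20.1%, 12.8%, 3.2% and 1.52% of all. At 5 of the 15 none of the 9 motifs was found, the 2 strongest summits included. The share of all summits with none of the 9 was not counted, so this is not a trait of these genes. The 201 bases around the summits had a median of 32.3% G and C (27.9 to 53.2%), lower than the 39.3% of all optimal summits at protein-coding promoters.

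To show the letters behind these counts, 30 bases around the variants at COX5A (3R:11819547-11819576) and COX7B (3L:17425422-17425451) are given with the CAGCTG of ND-42 (3R:22027460-22027489). The E-box under the summit of PolrMT (2L:1108327-1108356), the gene of the mitochondrial RNA polymerase, is given for comparison. All are on the plus strand of dm6, and capitals mark the hexamer. At COX5A it is CACGTT and at COX7B CACGAG, each read on the minus strand.
COX5A: gcgacagttataAACGTGtccatccctgga
COX7B: acaagtatgcagCTCGTGatctcatcccaa
ND-42: agttaaacacccCAGCTGtgctgtgtagtg
PolrMT: attcctgcacttCACGTGtggcggcgcaag

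In the promoters, taken from 250 bp before to 50 bp after the 5′ end of the gene, CACGTG was present at 4 of the 89 respiratory chain genes (4.49%), close to the 4.24% of all protein-coding genes. The 4 were COX7C and UQCR-6.4L, which were bound, and ND-PDSW and ATPsynepsilonL, which were not. Among all protein-coding genes, 8.4% of the bound and 2.82% of the unbound had it. TATCGATA, the element recognised by the factor Dref, was present at 9 of the 89 promoters (10.1%), against 9.37% of all. All 9 genes (COX4, COX7A, ND-15, ND-19, ND-23, ND-B14.5A, ND-B15, ND-MNLL and UQCR-14) were unbound, which is 12.2% of the 74 unbound respiratory chain genes. With 15 bound genes, a count of 0 has an upper Wilson limit of 20.4%. Among all protein-coding genes, 12.0% of the bound and 8.47% of the unbound had the element. TGATAA was present at 14.6% and GAGAGA at 6.74% of the 89, against 22.8% and 12.3% of all. CAGCTG was present at 26.7% of the bound and 23.0% of the unbound respiratory chain genes, against 17.7% of all protein-coding genes. Its share was 21.8% of all bound and 16.3% of all unbound protein-coding genes. The E-boxes of unbound ND-PDSW (2L:3465915-3465944) and bound UQCR-6.4L (3L:16566495-16566524) are given on the plus strand of dm6 with the hexamer in capitals, since the same letters stood at a bound and an unbound promoter. That of UQCR-6.4L lies upstream of the gene, whereas its summit lies past the gene's end.
ND-PDSW: atcactatgtttCACGTGcaaaaaaaaaaa
UQCR-6.4L: gttctattcctcCACGTGgcttttagtcat

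Other genes of respiration were counted from lists drawn up by function. Of 8 genes for cytochrome c and for subunits under other names, 4 were bound (21.5 to 78.5%), against 25.3% of all protein-coding genes. The cytochrome c genes Cyt-c-d and Cyt-c-p had ranks of 635 and 1021, and in the replicates 597, 632 and 652, and 1204, 914 and 1125. The Cyt-c-d summit was 346 bp from its own start and 112 bp from that of CG31808. The ranked Cyt-c-p summit lay 972 bp downstream, near the limit, while its nearest optimal summit was 69 bp from a TSS. The ATP synthase subunit blw and the oxidase subunit levy had ranks of 4027 and 4619. The levy summit was nearer to the start of wmd (75 bp) than to its own (163 bp). The subunits ox, sun and cype and Cyt-c1 were unbound. With these 8 genes added to the 89, 19 of 97 were bound (19.6%). Of 12 assembly factor genes, 3 were bound (25.0%, 8.89 to 53.2%). They were Ciao1 of iron-sulfur assembly, the copper chaperone Cox17 and Ttc19 of complex III, at ranks 1742, 2172 and 3007. The Ciao1 summit was nearer to the start of HPS1 (75 bp) than to its own (306 bp).

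The citrate cycle list, drawn to take in pyruvate dehydrogenase, which supplies the cycle, and to leave out succinate dehydrogenase, had 10 bound genes of 14 (71.4%, 45.4 to 88.3%), against the 25.3% of all protein-coding genes. They were Fum1 (fumarase) at rank 434, Idh3g (isocitrate dehydrogenase) at 549, the pyruvate dehydrogenase subunits Pdha, muc and Pdhb at 1658, 1872 and 5520, mAcon1 (aconitase) at 2334, ScsbetaA and Scsalpha1 (succinyl-CoA synthetase) at 2733 and 5821, Ogdh (oxoglutarate dehydrogenase) at 5623 and kdn (citrate synthase) at 5675. Idh3a, Idh3b, ScsbetaG and Mdh2 were unbound. The first of these summits is the one also counted for ND-ASHI. Succinate dehydrogenase belongs to the cycle too, and its genes are the 4 unbound subunits of complex II. For the enzymes of the cycle itself, with these 4 and without the 3 pyruvate dehydrogenase genes, 7 of 15 were bound (46.7%), a grouping made after the values were seen. The replicate ranks of Idh3g were 587, 738 and 518, and those of kdn were 8049, 5772 and 4208, outside the limit in replicate 1.

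Of 11 genes for the upkeep and transcription of mitochondrial DNA, 4 were bound (36.4%, 15.2 to 64.6%). PolrMT ranked 474, and 520, 481 and 508 in the replicates, with CACGTG 8.5 bp from its summit. The other 3 were the transcription termination factor family gene mTerf5, the single-strand binding protein gene mtSSB and the transcription factor gene mtTFB1, at ranks 2242, 3241 and 6480. The mtTFB1 summit was nearer to the start of CG11658 (52 bp) than to its own (478 bp). TFAM, which packages the mitochondrial DNA, and PolG1, its polymerase, were unbound. Of 7 genes for known or proposed regulators of respiratory genes, 6 were bound (85.7%, 48.7 to 97.4%), against the 25.3% of all protein-coding genes. Dref ranked 1383 with its summit 6 bp from the start of RpL13, ERR 1544, sima 4229, srl 4282, Myc 4983 and ewg 6548. The srl gene encodes the fly PGC-1 homologue, and sima the fly hypoxia-inducible factor. CACGTG lay 30.5 bp from the srl summit and 83.5 bp from that of ewg, for which replicate 2 had no region. The lists are small, and a gene entered them for its function and with earlier results of these data known.

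Among gene sets of like size with coordinated products, mitochondrial ribosomal protein genes were bound in 21 of 73 cases (28.8%, 19.7 to 40.0%). Cytosolic ribosomal protein genes were bound in 61 of 87 (70.1%, 59.8 to 78.7%) and proteasome subunit genes in 4 of 48 (8.33%, 3.29 to 19.6%). Over the 3 replicates the shares were 17.2% ± 2.6 for the respiratory chain genes, 32.9% ± 1.35 for the mitochondrial and 68.6% ± 5.41 for the cytosolic ribosomal protein genes, and 9.02% ± 1.2 for the proteasome genes (SD, n = 3). The respiratory chain thus stood between the proteasome and the mitochondrial ribosome in each replicate. The replicates score the same genes, so this describes repeatability and not a difference between gene sets. The Wilson interval of the respiratory chain genes, 10.5 to 26.0%, overlapped those of both lists. The differences between these lists were not tested.

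**Figure D5:**
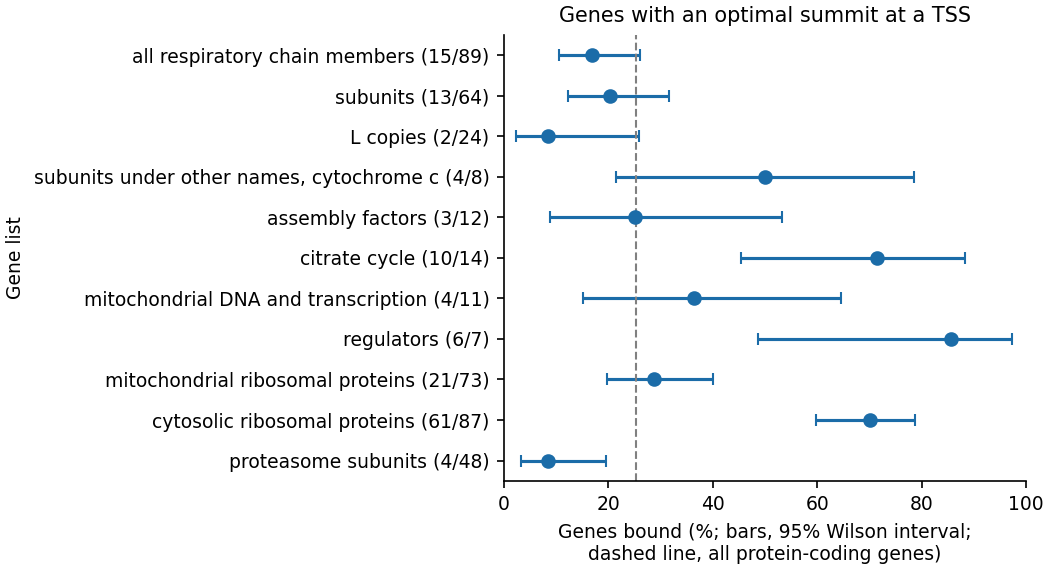
Share of genes bound (x axis, %) with 95% Wilson intervals (bars) for the respiratory chain genes and their classes, the other lists of respiration and 3 like gene sets (y axis), with the share of all protein-coding genes, 25.3%, as a dashed line. The respiratory chain genes lie at 16.9%, their subunits alone at 20.3% and their 24 L copies at 8.33%. The citrate cycle list, which includes pyruvate dehydrogenase and leaves out succinate dehydrogenase, lies at 71.4%. It was drawn up by function and not by symbol, so the 2 shares are not built alike. The cytosolic ribosomal protein genes lie at 70.1%.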

How the data were processed

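The authors deposited region lists in which each region has coordinates, a summit offset and a signal. Per the deposited text, calls were made on each replicate and on the pooled reads. The sources used here do not name the peak caller, the aligner, the scale of the signal or the threshold of the IDR step. The signal is the score that the authors' caller gave each region before deposit, and it served only to rank regions within a list. Read depth is unknown, so Wilson intervals cover counting error over genes only. Lists on dm3 were not used. On dm6 the optimal list held exactly the pooled regions with the 7366 highest signals.

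Genes and TSSs were taken from Ensembl release 115 for the dm6 assembly, and sequences from the NCBI RefSeq genome FASTA of the same assembly. Positions are 1-based. Replicate ranks of bound genes are those of the replicate region that holds the optimal summit; those of unbound genes are of the strongest summit within 1000 bp of a TSS, which need not be the same region in each list. A replicate was left out by keeping the optimal summits that both others held. Without strand or expression data, a summit between genes cannot be given to either. Named were the 3 strongest members per complex, every bound L copy, those 900 to 1100 bp from a TSS, those with CACGTG and every bound gene of the other lists; the remaining named members were chosen after their values were seen. The members and lists were chosen with earlier results of these data known. Of the listed symbols, 12 of 19 assembly factors, 14 of 15 citrate cycle genes and 7 of 8 regulators matched, and all of the others did. The element of respiratory gene promoters listed for the motif search is not reported, because its letters could not be checked in the sources. On simulated data, 200 of 200 summits planted at promoters were recovered over 13945 genes. Python 3.11.15, numpy 2.4.6, pandas 2.3.3, scipy 1.17.1 and matplotlib 3.10.9 were used.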

Additional observations from a re-analysis of the deposited data

How the results depend on the processing

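The count of 15 bound respiratory chain genes changed most under the distance of 2000 bp (23) and under assignment to the nearest protein-coding gene (7). It was 12 at 500 bp (without ATPsynD, ATPsynE and UQCR-6.4L), 10 in the strongest 3683 regions, 15 from gene 5′ ends alone and 15 without secondary summits. It was 13 to 14 with a replicate left out. In each of these settings, the share was below that of all protein-coding genes. The difference per replicate was -5.85 points in the strongest 3683 regions, -6.87 at 500 bp and -7.28 to -9.98 with a replicate left out. The CACGTG share at summits was 6.67% within 50 bp and 13.3% within 200 bp, and 7.14 to 7.69% with a replicate left out. The counts by complex are small and changed between settings. With a replicate left out, complex IV went from 4 to 3 bound genes without replicate 1 or 3. Complex V went from 4 to 3 without replicate 2 or 3, and the other complexes kept their counts. Changes of more than 1 gene occurred only at 500 bp, at 2000 bp, in the strongest 3683 regions or under nearest-gene assignment. The citrate cycle share was 46.7% for the enzymes of the cycle itself, a setting added after the data were seen. No paired analysis was possible because the series has 1 group. Read depth behind each list is unknown, so weak binding cannot be told apart from shallow coverage.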
